A study of Mus musculus with 6 samples.

Results

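Nucleoporins, the proteins that build the nuclear pore, and the receptors that carry cargo through it were followed as a set of genes in neurons that expressed either of 2 Ribo-STAMP variants. The members were all protein-coding mouse genes whose symbols begin with Nup and a digit, the exportins *Xpo1* to *Xpo7* and *Xpot*, the numbered *Ipo* genes, the numbered importin genes *Kpna* and *Kpnb*, *Tnpo1* to *Tnpo3*, and *Tpr*, *Ranbp2*, *Pom121* and *Ndc1*. This gave 48 of the 31053 genes listed per library, of which 25 encode nucleoporins and 23 encode transport receptors. The rule uses symbols and no measured value, but it was set with earlier results of these data known.

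Ribo-STAMP fuses rAPOBEC1, a deaminase that turns cytidine into uridine in RNA, to a ribosomal protein, so that mRNAs in contact with tagged ribosomes collect C-to-U edits. The quantity measured is EPR, the edits on a gene divided by its reads. Primary cortical neurons came from embryonic day 18 C57BL/6J mice with the WT genotype, received floxuridine on day in vitro (DIV) 3 against dividing cells and an AAV on DIV 6, and were collected at DIV 14 after 48 h of doxycycline at 1 μg per ml. In the AAV the synapsin promoter drives the transactivator, so construct expression is aimed at neurons, while RNA was taken from the whole culture. RPL10A-STAMP (3 libraries) carries mouse Rpl10a and RPL22-STAMP (3 libraries) carries mouse Rpl22, both proteins of the large ribosomal subunit. The variants also differ in the end at which APOBEC1 was joined. All 6 libraries were infected and induced, and uninfected cultures were not analysed here, so editing without a fusion cannot be subtracted.

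As background, the nuclear pore is a ring of repeated nucleoporin subcomplexes set into the nuclear envelope. The Y complex forms the outer rings, an inner ring holds the channel open, membrane nucleoporins anchor it, and filaments and a basket extend to the cytoplasm and the nucleus. Importins bring cargo with a nuclear localization signal in, exportins take cargo with an export signal out, and the small GTPase Ran sets the direction. Scaffold nucleoporins are known as very long-lived proteins in neurons, which no longer divide.

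Each gene has 1 ratio per library and the reads behind it are unknown, so no counting interval could be given, and a 0 can mean no edits or no reads. The replicates are named both biological and technical in the study, and p values measure only the spread between these libraries. The median EPR over the 8046 genes edited (EPR above 0) in all 6 libraries was 0.0120 to 0.0161 with RPL10A-STAMP against 0.00907 to 0.0129 with RPL22-STAMP, so libraries were scaled to a common median before testing. Of 10 neuron markers, 10 were edited in all 6 libraries. Their summed EPR was 0.199 to 0.240 with RPL10A-STAMP against 0.203 to 0.269 with RPL22-STAMP. Of 5 astrocyte markers, 4 were edited in all 6 libraries. The summed EPR of the 5 was 0.156 to 0.180 with RPL10A-STAMP against 0.103 to 0.165 with RPL22-STAMP. Editing was thus seen on astrocyte markers too, so EPR here cannot be read as that of neurons alone. Of 5 oligodendrocyte lineage markers, 1 was edited in all 6 libraries. The microglia markers (4) and the markers of dividing cells (2) held no gene edited in all 6 libraries, and the 3 endothelial markers were at 0 throughout. The part of glial markers in the differences below was not tested. The EPR of a marker measures neither the number of cells of a type nor the RNA per cell, and these bulk cultures cannot tell them apart.

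Stretches of the mRNAs of the 5 Y complex members edited in all 6 libraries are shown first, since the editing enzyme acts on their cytidines. Each is the 60-base coding window with the most cytidines that have A or T on both sides, chosen by sequence alone, written 5′ to 3′ on the mRNA strand of GRCm38 (mm10) with T for U. Capitals mark those cytidines. The positions of the edits themselves were not used here.
Nup107 (chr10:117781991-117782050, minus strand, coding exon, exon 6, 11 capitals): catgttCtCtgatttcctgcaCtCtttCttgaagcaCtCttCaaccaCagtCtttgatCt
Nup98 (chr7:102126451-102126510, minus strand, coding exon, exon 28, 10 capitals): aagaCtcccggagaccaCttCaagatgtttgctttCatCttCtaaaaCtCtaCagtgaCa
Nup160 (chr2:90723640-90723699, plus strand, coding exon, exon 32, 12 capitals): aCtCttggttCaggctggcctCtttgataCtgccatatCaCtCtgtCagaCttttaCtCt
Nup85 (chr11:115580527-115580586, plus strand, coding exon, exon 12, 11 capitals): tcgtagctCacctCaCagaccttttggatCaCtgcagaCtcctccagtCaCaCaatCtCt
Nup133 (chr8:123916324-123916383, minus strand, coding exon, exon 17, 9 capitals): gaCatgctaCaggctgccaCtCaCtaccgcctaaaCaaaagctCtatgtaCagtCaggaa
The windows of *Nup107* and *Nup85* hold the same number of such cytidines, and over the whole coding sequence *Nup107* has fewer per kb (67.0) than *Nup133* (73.6), *Nup98* (77.6), *Nup160* (77.7) or *Nup85* (78.3). The part of these numbers in the editing was not tested.

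Editing was higher with RPL10A-STAMP on *Nup107*, *Nup98*, *Nup160*, *Ranbp2*, *Nup205*, *Xpo1*, *Xpo6*, *Ipo7* and *Tnpo3*, and higher with RPL22-STAMP on *Nup210*. Each gene was tested with limma on log2(scaled EPR + 0.01), a scale that understates the change of low values, and a gene with an adjusted p under 0.05 is named called. A positive log2 fold change below is higher with RPL10A-STAMP. Counts at an unadjusted p under 0.05, where given below, have no share of all genes beside them. Of the 48 members, 41 were edited in all 6 libraries and entered the test, and 10 of the 41 (24.4%) were called, beside 14.3% of all 8046 genes. Toward RPL10A-STAMP the share was 9 of 41 (22.0%) beside 8.51% of all genes, and toward RPL22-STAMP it was 1 of 41 beside 5.77%. Without the Y complex genes, 7 of 36 (19.4%) were called, 6 of them (16.7%) toward RPL10A-STAMP. On the scaled values, 14 of 41 members had every RPL10A-STAMP library above every RPL22-STAMP library (beside 20.0% of all genes), and 3 the reverse (beside 17.1%). The median log2 fold change was 0.15 over the members and -0.01 over all genes tested. These are descriptions, with no test of the set. The number of members called ranged from 5 to 8 when single libraries were left out, beside 4.64% to 10.9% of all genes. It was 6, 6 and 5 when RPL10A-STAMP replicate 1, 2 or 3 was absent, beside 8.29%, 5.34% and 4.64% of all genes.

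Of the subcomplexes of the pore, the Y complex held the most calls (3 of 5 members tested, beside 14.3% of all genes). A further 3 Y complex genes outside the symbol rule were tested and not called. *Nup98* counts among the calls through Nup96, which its longer transcript also encodes, and EPR per gene cannot tell those parts apart. The group is small and was not tested as a set. The genes of the complex did not move alike. *Nup107*, *Nup98* and *Nup160* rose with RPL10A-STAMP, whereas *Nup133* and *Nup85* did not pass the test. *Nup107* (ENSMUSG00000052798, chr10:117750621-117792705, minus strand) encodes a stem subunit of the Y. Its EPR was 0.136, 0.155 and 0.115 in the 3 RPL10A-STAMP libraries and 0.00415, 0.00727 and 0.00674 in the 3 RPL22-STAMP libraries. Even the lowest RPL10A-STAMP library stood over an order of magnitude above the highest RPL22-STAMP library. The means were 0.135 ± 0.0197 and 0.00605 ± 0.00167 (SD, n = 3 each), and after scaling the ratio of means was 17.7. In limma this was a log2 fold change of 2.93 (SE 0.19, Benjamini-Hochberg adjusted p = 0.00165 over 8046 genes). Ranked by mean scaled EPR among those genes, *Nup107* lay at percentile 98.6 with RPL10A-STAMP and at percentile 15.8 with RPL22-STAMP.

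*Nup98* (ENSMUSG00000063550, chr7:102119398-102210176, minus strand) encodes an FG nucleoporin of the channel, and its longer transcript also encodes Nup96, the Y complex partner cleaved from the same precursor. It had an EPR of 0.0986, 0.179 and 0.160 with RPL10A-STAMP against 0.0227, 0.0369 and 0.0132 with RPL22-STAMP (log2 fold change 1.89, SE 0.26, adjusted p = 0.00615). *Nup160* (ENSMUSG00000051329, chr2:90677215-90736328, plus strand), a subunit of the arms, had 0.0585, 0.144 and 0.116 against 0.0141, 0.0204 and 0.0161 (log2 fold change 1.74, SE 0.22, adjusted p = 0.00513). Neither gene overlapped between the variants, but unlike *Nup107* both kept a fairly high level with RPL22-STAMP, at percentiles 85.8 and 72.4. The 3 calls held in all 15 alternative settings of scaling, pseudocount, filter, GC correction, block and libraries left out.

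*Nup133* (chr8:123897123-123949265, minus strand), which binds directly to Nup107 in the stem, read 0.00480, 0.00589 and 0.00703 with RPL10A-STAMP against 0.00306, 0.00460 and 0.0111 with RPL22-STAMP. The groups overlapped (log2 fold change -0.14, SE 0.19, adjusted p = 0.661). *Nup85* (chr11:115564434-115583985, plus strand), in an arm, read 0.00380, 0.00719 and 0.0147 against 0.00186, 0.00311 and 0.00336. Every RPL10A-STAMP library was above every RPL22-STAMP library, but the difference did not pass the test (log2 fold change 0.36, SE 0.17, adjusted p = 0.198). The small arm subunits were edited in few libraries. *Nup37* was edited in 1 library of each variant (0.0345 and 0.00781, both replicate 2), and *Nup43* in RPL22-STAMP replicate 2 only (0.00813), so neither was tested. Of the Y complex genes with other names, *Seh1l* and *Sec13*, which the cell also uses in nutrient signalling and vesicle coats, had log2 fold changes of -0.19 (adjusted p = 0.581) and -0.38 (adjusted p = 0.275). *Ahctf1*, which ties the Y complex to chromatin, read 0.0365, 0.0671 and 0.0865 with RPL10A-STAMP against 0.00955, 0.0446 and 0.0307 with RPL22-STAMP, with overlap (log2 fold change 0.71, SE 0.33, adjusted p = 0.195).

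**Figure D1:**
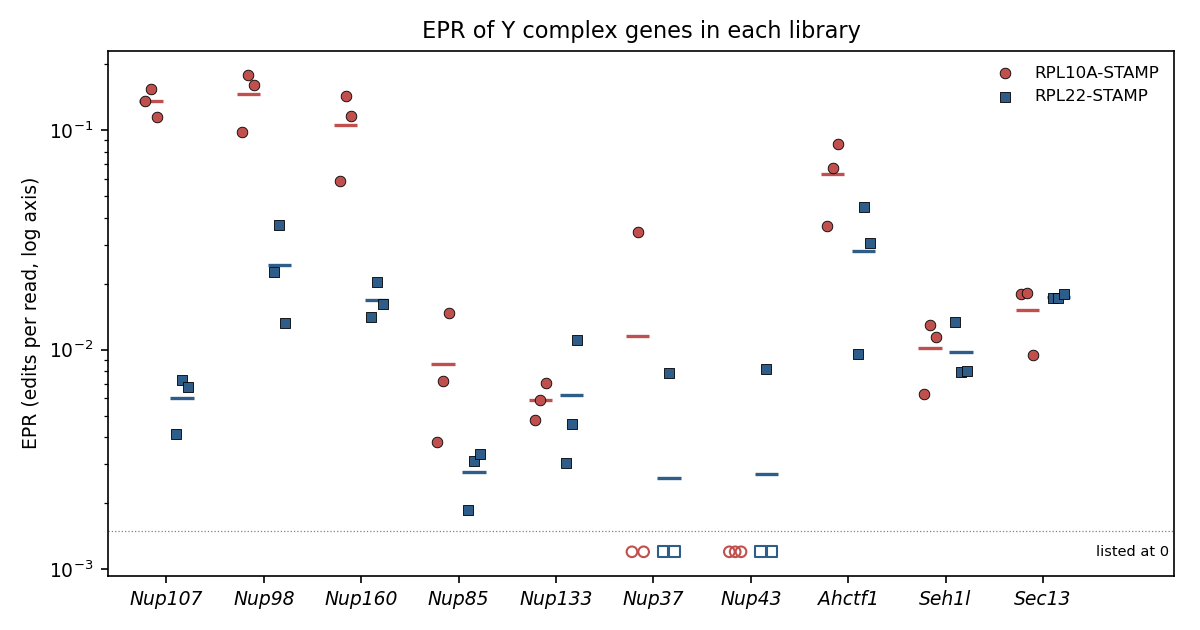
EPR (edits per read, log axis) of 10 Y complex genes in each library, with circles for RPL10A-STAMP, squares for RPL22-STAMP, short lines for the means of 3 libraries and open symbols below the dotted line for values listed at 0. *Nup107*, *Nup98* and *Nup160* sit apart between the variants, *Nup133*, *Seh1l* and *Sec13* overlap, and *Nup37* and *Nup43* are mostly at 0.

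The ratio of 2 genes within a library does not depend on how libraries are scaled. The EPR of *Nup107* over that of *Nup133* was 28.4, 26.3 and 16.4 in the RPL10A-STAMP libraries and 1.36, 1.58 and 0.608 in the RPL22-STAMP libraries. Over *Nup98* it was 1.38, 0.862 and 0.719 against 0.183, 0.197 and 0.510. Thus *Nup107* stood about level with *Nup98* under RPL10A-STAMP and below it in every RPL22-STAMP library. Over each of 7 partners (*Nup98*, *Nup160*, *Nup133*, *Nup85*, *Seh1l*, *Sec13* and *Ahctf1*) the 3 ratios under RPL10A-STAMP were all above the 3 under RPL22-STAMP. These ratios all contain *Nup107* and restate its difference beside each partner, so no test is given for them.

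Among the other nucleoporins, 2 rose with RPL10A-STAMP, whereas 1 rose with RPL22-STAMP. Over all 19 nucleoporins tested, Y complex included, 5 (26.3%) and 1 were called, beside 8.51% and 5.77% of all genes. *Ranbp2*, the giant SUMO ligase of the cytoplasmic filaments, had an EPR of 0.0341, 0.0634 and 0.0585 with RPL10A-STAMP against 0.0101, 0.00832 and 0.00651 with RPL22-STAMP, without overlap (log2 fold change 1.47, SE 0.19, adjusted p = 0.00521). Its filament neighbours *Nup214* (0.00832 ± 0.00538 against 0.00610 ± 0.00158, mean ± SD, n = 3) and *Nup88* (0.00741 ± 0.00154 against 0.00341 ± 0.00272) did not pass the test, with log2 fold changes of -0.04 (adjusted p = 0.922) and 0.27 (adjusted p = 0.304). In the inner ring, the scaffold gene *Nup205* read 0.0396, 0.0558 and 0.0457 against 0.00997, 0.0227 and 0.00597 (log2 fold change 1.12, SE 0.24, adjusted p = 0.0264), again without overlap. The other tested ring genes, *Nup93*, *Nup155* and *Nup35*, had log2 fold changes between -0.25 and 0.09, and their groups overlapped. *Nup35* was the most edited of these, at 0.0405 ± 0.0160 against 0.0333 ± 0.0155. *Nup188*, the paralog of *Nup205*, was not edited in every library and read 0.00326, 0.00380 and 0.00391 with RPL10A-STAMP against 0.00234, 0.0202 and 0 with RPL22-STAMP.

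The membrane nucleoporin *Nup210* went the other way. It read 0.00477, 0.00754 and 0.0128 with RPL10A-STAMP against 0.0152, 0.0214 and 0.0116 with RPL22-STAMP (log2 fold change -0.73, SE 0.18, adjusted p = 0.0406). The deposited values overlapped between the variants, and only the scaled values were apart. The call ended without scaling (adjusted p = 0.169), with the GC trend removed (adjusted p = 0.165) and without RPL10A-STAMP replicate 1, 2 or 3 or RPL22-STAMP replicate 1 or 2 (adjusted p = 0.115, 0.119, 0.0661, 0.0964 and 0.101). *Ndc1* and *Pom121*, which anchor the pore in the envelope, had log2 fold changes of 0.19 (adjusted p = 0.444) and -0.35 (adjusted p = 0.428). *Ndc1* read 0.0240, 0.0281 and 0.0218 with RPL10A-STAMP against 0.0117, 0.0174 and 0.0180 with RPL22-STAMP, apart as deposited but not after scaling. In the nuclear basket, *Nup153*, *Tpr* and *Nup50* had log2 fold changes of 0.41, 0.15 and -0.33. Of these 3, limma called 0, beside 14.3% of all genes, and 0 had an unadjusted p under 0.05. With so few genes, this count cannot be told apart from that share. *Nup205* lost its call without RPL10A-STAMP replicate 1, 2 or 3 (adjusted p = 0.0720, 0.0865 and 0.0697) or RPL22-STAMP replicate 1 (adjusted p = 0.0587).

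**Figure D2:**
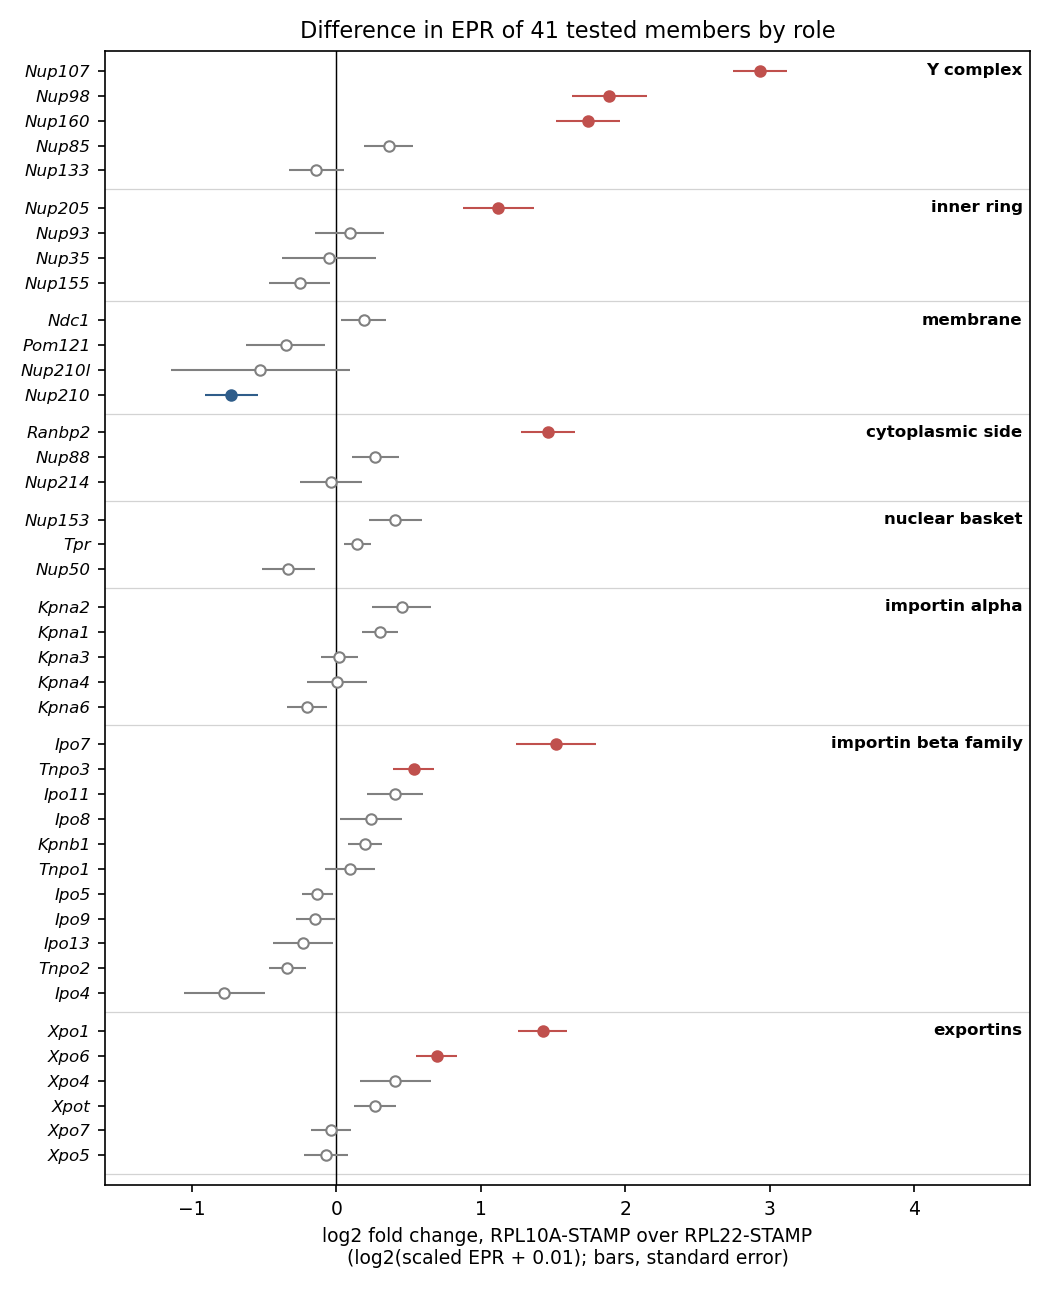
Difference between the variants (log2 fold change on log2(scaled EPR + 0.01), positive where RPL10A-STAMP is higher), with the standard error of the limma fit as bars, for the 41 members edited in all 6 libraries, grouped by role. Filled points passed an adjusted p of 0.05, 9 to the right of 0 and 1 (*Nup210*) to the left, and open points did not.

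Of the receptors, 4 of the 22 tested (18.2%) rose with RPL10A-STAMP, beside 8.51% of all genes. The other 18 did not pass the test. Among the exportins, *Xpo1*, the main exporter of proteins with a leucine-rich signal, read 0.0411, 0.0758 and 0.0804 with RPL10A-STAMP against 0.00880, 0.0159 and 0.0137 with RPL22-STAMP (log2 fold change 1.43, SE 0.17, adjusted p = 0.00472), and its call held in 15 of 15 alternatives. *Xpo6*, which exports actin, read 0.0146, 0.0154 and 0.0249 against 0.00462, 0.00498 and 0.00569 (log2 fold change 0.69, SE 0.14, adjusted p = 0.0231). Both genes were without overlap. The *Xpo6* call ended without RPL10A-STAMP replicate 1 or 3 (adjusted p = 0.0614 and 0.0782) or RPL22-STAMP replicate 2 or 3 (adjusted p = 0.0646 and 0.0591). The microRNA precursor exporter *Xpo5*, the tRNA exporter *Xpot*, *Xpo4* and *Xpo7* had log2 fold changes from -0.07 to 0.41, and did not pass the test. *Xpo4*, which exports eIF5A, read 0.0166, 0.0265 and 0.0149 against 0.00465, 0.0185 and 0.00664. *Xpot* was higher in every RPL10A-STAMP library (0.0178, 0.0217 and 0.0296 against 0.0109, 0.0178 and 0.0109) with an adjusted p of 0.264.

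In the importin beta family, 2 of 11 genes (18.2%) rose with RPL10A-STAMP, beside 8.51% of all genes. *Ipo7*, an importer of ribosomal proteins and histone H1, read 0.0303, 0.0726 and 0.0617 with RPL10A-STAMP against 0.0112, 0.0102 and 0.00359 with RPL22-STAMP (log2 fold change 1.52, SE 0.27, adjusted p = 0.0152). *Tnpo3*, which imports SR splicing factors, read 0.0113, 0.0202 and 0.0180 against 0.00487, 0.00819 and 0.00467 (log2 fold change 0.53, SE 0.14, adjusted p = 0.0453). Neither overlapped. Without RPL10A-STAMP replicate 2 or 3, *Ipo7* had an adjusted p of 0.0515 or 0.0622, and *Tnpo3* lost its call whichever of the 6 libraries was left out (adjusted p from 0.0681 to 0.136). *Kpnb1*, the importin beta that pairs with the alpha adaptors, read 0.00778, 0.0107 and 0.0107 against 0.00450, 0.00739 and 0.00419, apart but not called (log2 fold change 0.20, SE 0.12, adjusted p = 0.287).

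On the side of RPL22-STAMP, *Ipo4* read 0.0144, 0.0575 and 0.0377 against 0.0169, 0.0183 and 0.0251 with RPL10A-STAMP (log2 fold change -0.77, SE 0.28, adjusted p = 0.113). It passed the test when RPL22-STAMP replicate 1, its lowest value, was left out (adjusted p = 0.0176), and 55.3% of its exon bases are shared on the same strand with the gene model *Gm49378*. *Ipo5*, *Ipo9* and *Ipo13* had log2 fold changes of -0.13, -0.14 and -0.23, and *Ipo11* of 0.41, with overlap in each. Without scaling the first 3 were slightly above 0 and not called. *Ipo5* was the steadiest of them, between 0.00460 and 0.00621 in all 6 libraries. Of the importin alpha genes, the adaptors that read the classical import signal, 5 were tested and limma called 0, beside 14.3% of all genes. With so few genes, this count cannot be told apart from that share. An unadjusted p under 0.05 was found for 1 (*Kpna1*), and the median log2 fold change was 0.02.

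Close relatives could be set side by side, each pair tested gene by gene and not against each other. *Ipo8*, the paralog of the called *Ipo7*, read 0.0128, 0.0113 and 0.0128 with RPL10A-STAMP against 0.00262, 0.0139 and 0.00630 with RPL22-STAMP (log2 fold change 0.24, SE 0.21, adjusted p = 0.491). The levels of the paralogs were alike under RPL22-STAMP (means 0.00835 for *Ipo7* and 0.00762 for *Ipo8*) and wider apart under RPL10A-STAMP (0.0549 and 0.0123). *Tnpo1*, an importer of RNA-binding proteins, read 0.0151, 0.0167 and 0.0188 against 0.00662, 0.0193 and 0.0111 (0.10, adjusted p = 0.751). Its paralog *Tnpo2* read 0.0160, 0.0247 and 0.0244 against 0.0204, 0.0248 and 0.0237 (-0.34, adjusted p = 0.125). Among the alpha adaptors, *Kpna3* and *Kpna4* had log2 fold changes of 0.02 and 0.00, both with overlap. *Kpna3* stayed between 0.0104 and 0.0202 over the 6 libraries, and *Kpna4* between 0.00604 and 0.0210. *Kpna1* read 0.0199, 0.0219 and 0.0263 against 0.00948, 0.0156 and 0.0126 (0.30, adjusted p = 0.150), and *Kpna6* read 0.0190, 0.0223 and 0.0227 against 0.0141, 0.0239 and 0.0239 (-0.21, adjusted p = 0.355).

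**Figure D3:**
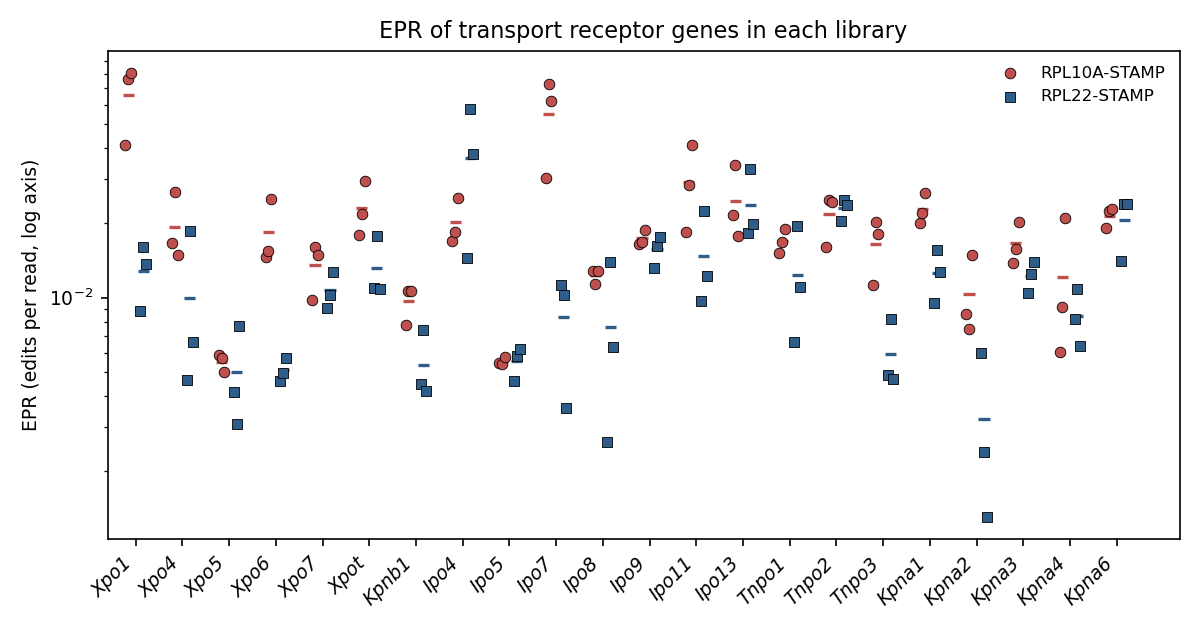
EPR (edits per read, log axis) of the 22 transport receptor genes edited in all 6 libraries, with circles for RPL10A-STAMP, squares for RPL22-STAMP and short lines for the means of 3 libraries. *Xpo1*, *Xpo6*, *Ipo7* and *Tnpo3* are the receptors that passed the test, and of the importin alpha genes *Kpna3*, *Kpna4* and *Kpna6* overlap between the variants.

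Other genes of the pathway, listed by function but with earlier results of these data known, were set beside the members. Of 27 genes of the Ran cycle, RNA export, SUMO at the pore and further pore or Y complex genes, 22 were tested, and limma called 0 higher with RPL10A-STAMP (3 at an unadjusted p under 0.05) and 1 higher with RPL22-STAMP, beside 8.51% and 5.77% of all genes. On the scaled values, 4 of the 22 had every RPL10A-STAMP library higher and 2 the reverse, beside 20.0% and 17.1% of all genes. That gene was *Ddx19b*, a helicase that remodels mRNPs on the cytoplasmic face, at 0.00771, 0.0109 and 0.0105 with RPL10A-STAMP against 0.0141, 0.0143 and 0.0154 with RPL22-STAMP (log2 fold change -0.54, SE 0.13, adjusted p = 0.0394). The libraries did not overlap, but the call ended without scaling (adjusted p = 0.246) and when any library but RPL22-STAMP replicate 2 was left out (adjusted p from 0.0880 to 0.120). It also ended with the GC trend removed, with the replicate number as a block, and with both (limma adjusted p = 0.0682, 0.0924 and 0.136). Among genes edited in at least 3 libraries the adjusted p was 0.0681. The call of *Ddx19b* thus held in 5 of 15 alternatives. *Ran* itself had a log2 fold change of -0.14 (adjusted p = 0.638), and *Cse1l*, which returns importin alpha to the cytoplasm, had 0.48 (adjusted p = 0.0539). *Senp2*, of the SUMO genes, also had 0.48 (adjusted p = 0.0543), without overlap. Both lay just over the threshold toward RPL10A-STAMP. Among 22 genes, a count of 0 in that direction cannot be told apart from the share of 8.51%. The median over the 22 genes was -0.10. Near-identical copies cover 34.5% of the *Ddx19b* transcript, 78.7% of that of *Ran* and 19.2% of that of *Senp2*, so their EPR is uncertain.

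Members that were not edited in all 6 libraries were left out of the main test because a 0 has no known depth behind it. Beside *Nup37*, *Nup43* and *Nup188*, these were the central channel genes *Nup54*, *Nup62* and *Nup62cl* and the importin alpha gene *Kpna7*. *Nup54* read 0.0119, 0.00217 and 0.00624 with RPL10A-STAMP against 0.00219, 0 and 0.00218 with RPL22-STAMP, and *Nup62* read 0.00264, 0.00346 and 0.00597 against 0.00197, 0.00604 and 0, with overlap. With a looser filter (EPR above 0 in at least 3 libraries), *Nup54*, *Nup62* and *Nup188* entered with log2 fold changes of 0.43, 0.08 and -0.26 and were not called (adjusted p = 0.400, 0.853 and 0.748). *Nup62cl* and *Kpna7* were listed at 0 in all 6 libraries. Each library had edits on 42 to 45 of the 48 members.

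The level of editing differed widely between members. EPR is a value per read and not per cytidine, so its order among genes also reflects base content. *Nup210l*, the paralog of *Nup210*, was highest in every library, at 0.413, 0.647 and 1.56 with RPL10A-STAMP against 0.400, 0.674 and 2.08 with RPL22-STAMP. Replicate 3 of both variants held more edits than reads (EPR above 1). The spread between replicates was far wider than the difference between variants (log2 fold change -0.53, SE 0.62, adjusted p = 0.605). The values rose with the replicate number in both variants. With that number as a block in limma, the SE was 0.25 and the gene was still not called (adjusted p = 0.233). *Nup98* and *Nup107* followed by mean over the 6 libraries. Among the 41 members edited in all 6 libraries, the lowest means belonged to *Tpr* (0.00329), *Nup50* (0.00444) and *Xpo5* (0.00526), whose ranges over the 6 libraries overlapped. *Tpr*, the basket filament gene, read 0.00359, 0.00420 and 0.00550 with RPL10A-STAMP against 0.00232, 0.00214 and 0.00198 with RPL22-STAMP, apart but not called (adjusted p = 0.331).

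Transcript GC content moved with the difference between variants in the members as in all genes. Spearman's rho between GC content and log2 fold change was -0.46 over the 41 tested members and -0.47 over 7921 coding genes, a description across genes that share libraries and are not independent replicates. *Ipo7*, *Xpo1* and *Ranbp2* were among the most AT-rich members, with a GC content of 40.3%, 40.4% and 40.6%. *Kpna3*, *Kpna4* and *Tnpo1*, at 39.6%, 40.0% and 40.4%, were as AT-rich and were not called (log2 fold changes of 0.02, 0.00 and 0.10). *Nup107* (47.6%), *Nup98* (47.5%) and *Nup160* (45.5%) were closer to the median of all coding genes tested, 49.0%. With the trend removed from each library, the log2 fold change of *Nup107* was 2.88, that of *Nup98* 1.84 and that of *Nup160* 1.59. Those of *Ranbp2*, *Xpo1* and *Ipo7* fell from 1.47, 1.43 and 1.52 to 1.11, 1.07 and 1.15, and all of these stayed called. *Xpo6* went from 0.69 to 0.90, and *Nup205* from 1.12 to 1.11. *Tnpo3* (limma adjusted p = 0.101) and *Nup210* were no longer called. In this fit 8 of 41 members were called, beside 8.25% of all genes. The 9 members called toward RPL10A-STAMP had nearly the same GC content (median 46.4% against 46.8% in the other 32 tested members) and number of A- or T-flanked cytidines per kb of coding sequence (median 76.1 against 76.2). They had a somewhat longer coding sequence (median 3375 against 2920.5 bases). The tested members as a whole differed from all tested coding genes, with a median GC content of 46.5% against 49.0%, 76.2 against 66.8 flanked cytidines per kb and 3114 against 1479 coding bases. Spearman's rho between flanked cytidines per kb and log2 fold change was 0.23 over the tested members and 0.29 over the coding genes. The part of these properties in the share of members called was not tested.

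**Figure D4:**
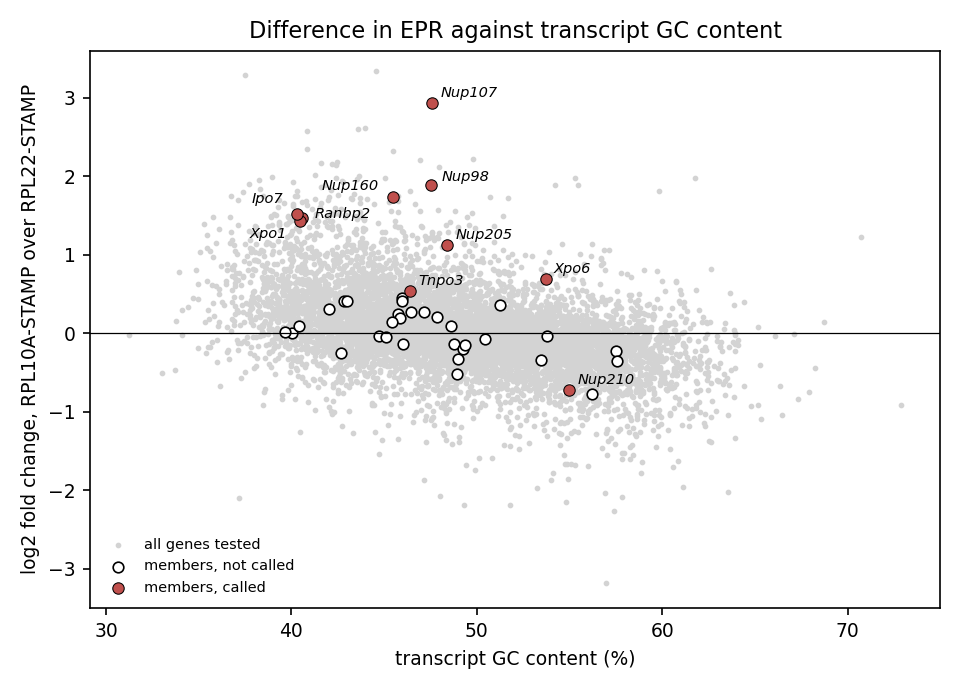
Difference between the variants (log2 fold change on log2(scaled EPR + 0.01), positive where RPL10A-STAMP is higher) against transcript GC content in percent, with all genes tested in grey, members not called as open circles and called members filled and named. Fold changes fall with GC content in grey and in the members (rho -0.47 and -0.46), and *Nup107* is at 47.6% GC and a log2 fold change of 2.93.

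Some members have near-identical copies elsewhere in the genome, and reads were allowed to align to up to 10 locations, so that their EPR is uncertain. By runs of at least 50 identical bases, 95.2% of the *Kpna2* transcript, 91.9% of *Nup35*, 57.8% of *Nup54*, 55.5% of *Xpot*, 31.0% of *Tnpo1* and 22.2% of *Nup50* are repeated. Smaller parts are repeated in *Ipo5* (18.8%), *Pom121* (12.6%), *Kpnb1* (11.2%), *Xpo4* (10.5%) and *Nup153* (7.42%), and some others have less. Of the 10 called members, 8 have no such copy, and *Ipo7* and *Ranbp2* have 3.57% and 1.28%. For *Nup133*, 10.4% of exon bases face an antisense gene model, *Gm29773*. The antisense share was 11.9% for *Pom121* (*Nsun5*) and 7.07% for *Kpnb1* (*Gm11583*), and lower for the other members. Whether reads were counted by strand is not given in the sources used here, although the library kit keeps strand. *Kpna2*, an adaptor, read 0.00859, 0.00747 and 0.0149 with RPL10A-STAMP against 0.00600, 0.00239 and 0.00131 with RPL22-STAMP. These values were apart as deposited but overlapped after scaling (log2 fold change 0.45, SE 0.21, adjusted p = 0.190).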

How the data were processed

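Bulk poly(A) RNA-seq libraries, 3 per variant, were grouped by their labels. STAR alignment to mm10 of trimmed single-end reads, SAILOR for the C-to-U edits and featureCounts for the reads per gene were the steps of the authors, who deposited 1 ratio per gene, edits over reads (EPR), not normalized between libraries. The methods state the same number of reads for every sample, and the annotation used is not given in the sources used here. Of 31053 gene identifiers, 30934 were found in GENCODE M21 (GRCm38).

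Each library was scaled to the geometric mean of the 6 library medians, taken over the 8046 genes edited in all 6, and log2(scaled EPR + 0.01) was fitted with limma 3.58.1 (R 4.3.3, variance trend), adjusted by Benjamini-Hochberg over 8046 genes with a threshold of 0.05. GC trends were natural splines of 4 degrees of freedom, each gene being given the values of its transcript with the most coding bases. Copies were searched with BLAST 2.17.0. Alternatives changed the pseudocount (0.001, 0.05), scaling (none, quantile), filter (3 libraries), block, GC and variance trends and libraries.

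The members, the lists and the choice of tested genes were chosen with earlier results of these data known. Named are all Y complex genes, called members, the 3 highest and 3 lowest by mean EPR among those edited in all 6 libraries, 4 paralog pairs, members with an EPR above 1 and members left untested. Others, among them *Cse1l*, *Senp2*, *Ran*, *Ipo4* and those with copies, were named after their values were seen.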

Additional observations from a re-analysis of the deposited data

How the results depend on the processing

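Of the 10 called members, *Nup107*, *Nup98*, *Nup160* and *Xpo1* passed the test in all 15 alternatives, *Ranbp2* in 14, *Ipo7* in 12, *Xpo6* in 10, *Nup205* in 9, and *Nup210* and *Tnpo3* in 5 each, and all kept their direction. The 1149 genes called over the whole table became 754 among genes edited in at least 3 libraries, 603 with the replicate number as a block, 663 with the GC trend removed, 227 with the GC trend removed and the block, and 373 to 874 with single libraries left out. The members called were then 7, 7, 8, 5 and 5 to 8. Toward RPL10A-STAMP there were 5 with the GC trend removed and the block, and 5 to 7 with libraries left out. Toward RPL22-STAMP, 0 members were called without scaling, with the looser filter, with the block, with the GC trend removed (with or without the block), and 0 to 1 with libraries left out. The block moved no log2 fold change, and *Xpo6*, *Tnpo3* and *Nup210* were not called under it (adjusted p = 0.0524, 0.0834 and 0.102). Over all genes tested, same-numbered libraries deviated together with r of only 0.04, 0.05 and -0.01, so the numbers were not taken as pairs. Without scaling, the median of all genes moved by 0.19 on the log2 scale and 88.1% of all calls lay toward RPL10A-STAMP, against 59.6% with it.

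Several genes near 0 changed sign, without a call. Without scaling, 8 of the 41 members turned from below to above 0, the highest being *Nup35* at 0.23, with *Nup214*, *Xpo7*, *Ipo5*, *Ipo9* and *Ipo13* among them. *Seh1l*, outside the members, was then at 0.0282, *Kpna6* at 0.0492 and *Xpo5* at 0.0616. With the GC trend removed, with or without the block, *Kpna3* was at -0.37, *Kpna4* at -0.37, *Tnpo1* at -0.27, *Tpr* at -0.00599 and *Xpo5* at 0.00694. *Kpna4* was at -0.0271 with a pseudocount of 0.001. With single libraries left out, the log2 fold change ran from -0.25 to 0.0745 for *Nup133*, -0.32 to 0.0242 for *Seh1l*, -0.0362 to 0.0668 for *Kpna3*, -0.21 to 0.14 for *Kpna4*, -0.0391 to 0.25 for *Tnpo1*, -0.96 to 0.12 for *Nup210l* and -0.20 to 0.0546 for *Xpo5*. The cause was not tested. What sets the limits is 3 libraries per variant, a ratio without its reads, and no library without a fusion. Levels of RNA, and edits per site, could not be separated from the ratio.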
